A study of Rattus norvegicus with 6 samples.

Results

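Chemokines and their receptors were followed across the cell classes of the rat pancreatic islet preparation. The members were all genes whose symbol begins with Ccl, Cxcl, Ccr or Cxcr followed by a number, together with Cx3cl1, Cx3cr1, Xcl1 and Xcr1. This rule gave 52 of the 32883 genes in the count tables, 34 of them ligands and 18 receptors. Ccr2 was not analysed here. All 52 members had at least 1 transcript count, and 46 had at least 100.

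Male Wistar rats were compared in 3 groups of 2 animals, with 1 rat per library. The young group was taken at 2 months of age on normal chow, before any diet period. The old group had then eaten normal chow for 18 months, to an age of 20 months, and the HFHF-old group had eaten a high-fat high-fructose diet over the same 18 months, to the same age. The pancreas was digested with collagenase P, islets were enriched on a Histopaque gradient and dissociated with TrypLE, and single-cell 3′-end libraries were sequenced, so each library holds whatever cells passed the gradient and not the pancreas in its own proportions.

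Chemokines are small secreted proteins, in a few cases tethered to the cell surface, that guide leukocytes along gradients. They act through receptors coupled to G proteins, and each receptor answers one ligand or a small family of them. In the pancreas they are best known for drawing monocytes, T cells and natural killer (NK) cells into inflamed islets, while a stromal set holds resident lymphocytes in place. Some pairs are nearly exclusive, such as Xcl1 with Xcr1 or Cxcl13 with Cxcr5, and others are shared, as Ccr1 is by Ccl3 and Ccl5.

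The files held 78024 barcodes, of which 75201 were kept. Library totals ran from 77387928 to 166875258 unique molecular identifiers (UMIs, the count of distinct transcripts captured), and the median per kept cell from 2537 to 9391.5. Cells were clustered without the chemokine genes and named from marker genes, none of which is a chemokine gene. The names are therefore to be read as "NK-like" and so on, and the suffix is dropped from here. 12 clusters, with 13.5% of the cells, stayed unnamed. They held 4854 of the 10283 kept cells of young 2, against 279 to 2191 cells in each other library. Of these young 2 cells, 2298 lay in cluster 5 and 2337 in cluster 11, which held no other library. Both clusters had Ins1 and Pyy among their leading genes. The levels and tests of young 2 by class therefore leave these cells out. A cluster in which 7 of 8 detected neutrophil markers were raised, none of them among its 10 leading genes, is called the Olr1 Lilrb4 myeloid class after those leading genes, and 1607 of its 1798 cells came from HFHF-old 1. Both HFHF-old libraries stood apart: HFHF-old 2 held 69.9% NK cells and 0.640% macrophages, and HFHF-old 1 held 0.534% NK cells, against 7.32 to 9.92% NK cells and 18.2 to 35.4% macrophages in the other 4. The low NK share of HFHF-old 1 depended on the naming of clusters. An unnamed cluster of 885 cells, led by genes such as Tnni3k and Mmp9 and with 10 of 10 NK markers raised, held 823 cells of this library. With this Tnni3k cluster, added to the NK class as an alternative chosen after seeing the data, the share was 7.40%, and clustering on 10 principal components gave 6.73%. Pairs of libraries shared 20 to 69 barcodes, at most 0.604% of the smaller library. Levels are given in CPM, the UMIs of a gene scaled to the total UMIs of its class in a library with no correction for gene length, in the order young 1, young 2, old 1, old 2, HFHF-old 1, HFHF-old 2, for libraries with at least 10 cells of the class. Fewer cells of a type and less RNA per cell cannot be told apart in a sum over a class. Differences between classes are described without a test, since the classes were made from the same cells.

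NK cells had the highest mean level of Ccl5, Ccl4, Ccl3, Xcl1 and Ccl1. Ccl5, which attracts T cells, NK cells and monocytes, was the member with the highest level of all. Its level in the NK class was 10487, 7727, 13542, 14382, 4378 and 9016 CPM, a mean of 9922 ± 3733 (SD, n = 6). It was lowest in HFHF-old 1, the library with 64 NK cells, where it was 7848 CPM with the Tnni3k cluster added. Young 2 was then the lowest at 7826 CPM, and both old libraries lay above the other 4. Of the young 2 NK class, 40.4% lay in a cluster led by Cemip with 5 of 10 NK markers raised. With 10 principal components young 2 was at 13082 CPM, and the HFHF-old libraries were lowest at 8125 and 9078 CPM. T cells held Ccl5 at 3362 ± 1206 CPM, below the NK class in 6 of 6 libraries. A Ccl5 UMI was present in 79.7 to 99.0% of NK cells, and in 71.0 to 97.1% after each cell was thinned to 1000 UMIs. Acinar cells, which are not known to make it, had one in 16.8 to 50.9% of cells, or 7.70 to 19.7% when thinned, at median depths of 915 to 4326 UMIs against 3543.5 to 8821.5 in the NK class. Shares at or below the acinar ones were read as background.

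Ccl4 and Ccl3, close relatives of Ccl5 that share its receptors, were also led by the NK class but more evenly split with T cells. Ccl4 stood at 2128, 659, 2189, 1371, 1853 and 3236 CPM in NK cells. T cells held 1152 ± 670.0 CPM of it, lower than the NK class in 6 of 6 libraries. Ccl3 averaged 801 ± 339.6 CPM in NK cells and 756 ± 446 CPM in T cells (n = 6 each), with the NK class above in only 4 of 6 libraries, so the order of these classes was not fixed. Both were low in young 2 in either class. Macrophages came next with 613 CPM of Ccl4 and 442 CPM of Ccl3. Ccl3 and Ccl4 are similar in sequence, and how reads common to both were assigned is not given in the sources used here.

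Xcl1, or lymphotactin, made by activated NK and T cells, stood at 1226, 858, 833, 1311, 483 and 684 CPM in NK cells, 899 ± 317 (SD, n = 6). Both HFHF-old libraries were below the other 4, but with the Tnni3k cluster added HFHF-old 1 was at 912 CPM and the groups overlapped. T cells held 492 ± 174 CPM, lower in 5 of 6 libraries. Ccl1, a ligand of Ccr8, was led by NK cells too, at 26.6 ± 38.3 CPM, but 103 CPM in young 2 carried most of that mean.

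Macrophages led 8 of the 34 ligands, more than any other class. Ccl6, a CC ligand of rodent myeloid cells, was the highest at 1638, 1297, 1551, 1804, 1196 and 2064 CPM. The spread over libraries was small, 1592 ± 321 (SD, n = 6), and the Olr1 Lilrb4 myeloid class held nearly as much, 1374 ± 394 CPM (n = 5), above macrophages in 2 of 5 libraries. Cxcl2, which attracts neutrophils, was likewise shared by these myeloid classes, at 676 ± 153 and 648 ± 397 CPM. Ccl2 and Ccl7, which attract monocytes, averaged 534 ± 177 and 355 ± 159.6 CPM in macrophages, and Ccl2 was also held by fibroblasts at 311 ± 219 CPM. Ccl24, a ligand of the eosinophil receptor Ccr3, stood at 768, 672, 494, 559, 505 and 98.5 CPM, low only in HFHF-old 2, where the class had 75 cells. Cxcl16, which is made as a membrane protein and binds Cxcr6, averaged 180.1 ± 95.7 CPM in macrophages and 103 ± 15.3 CPM in dendritic cells.

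The macrophage class was not made of the same clusters in every library. Cluster 1 held 46.3, 53.1 and 58.9% of the class in young 2, old 1 and old 2, a cluster led by Gria2 held 57.2% in young 1, a cluster led by Oasl held 98.4% in HFHF-old 1, and cluster 7 held 90.7% in HFHF-old 2. Cxcl13, which attracts B cells through Cxcr5, was the most uneven ligand of the class, with 32.9, 89.4, 428, 51.6, 10.1 and 318 CPM. Its highest values were in 1 old and 1 HFHF-old library, so the groups overlapped. Single clusters were as uneven: in cluster 1 it was at 34.8, 66.4, 247 and 33.1 CPM and in cluster 7 at 199.6, 217, 602 and 72.6 CPM in young 1, young 2, old 1 and old 2. Ccl12, a further monocyte attractant, was at 41.5 ± 36.6 CPM, with 113 CPM in old 2.

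Endothelial cells led 3 ligands. Cxcl12, which retains cells that carry Cxcr4, was highest in endothelial cells, at 2042, 1218, 1141, 849.7, 1366 and 570.5 CPM. Fibroblasts came second at 556 ± 179 CPM, below endothelial cells in 6 of 6 libraries. A Cxcl12 UMI was found in 56.7 to 82.6% of endothelial cells (33.8 to 68.5% thinned) at median depths of 1487 to 5637 UMIs. NK cells had one in 0.333 to 10.9% (0 to 0.755% thinned) at 3543.5 to 8821.5 UMIs. Cx3cl1, the membrane-bound ligand fractalkine, was also led by endothelial cells at 64.8 ± 23.0 CPM.

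Ccl21, a ligand of Ccr7 that guides dendritic cells and T cells into lymphatics, had a class mean of 652 ± 964 CPM in endothelial cells, and its values were 0, 406, 351, 592, 2560.2 and 0 CPM. Within the class, 9 cells with 3 or more Ccl21 UMIs (0, 2, 2, 2, 3 and 0 per library) held 3330 of the 3331 Ccl21 UMIs. They held 92.6 to 94.9% of all Ccl21 UMIs in young 2, old 1 and HFHF-old 1, but 50.6% in old 2, where the rest lay outside the endothelial class. All 9 also had UMIs of Prox1, Lyve1 and Mmrn1, and 8 had Pdpn, against 2.17, 10.8, 4.48 and 3.58% of the other 1985 endothelial cells. These 4 genes, known from lymphatic endothelium, were looked up after the Ccl21 values had been seen.

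**Figure D1:**
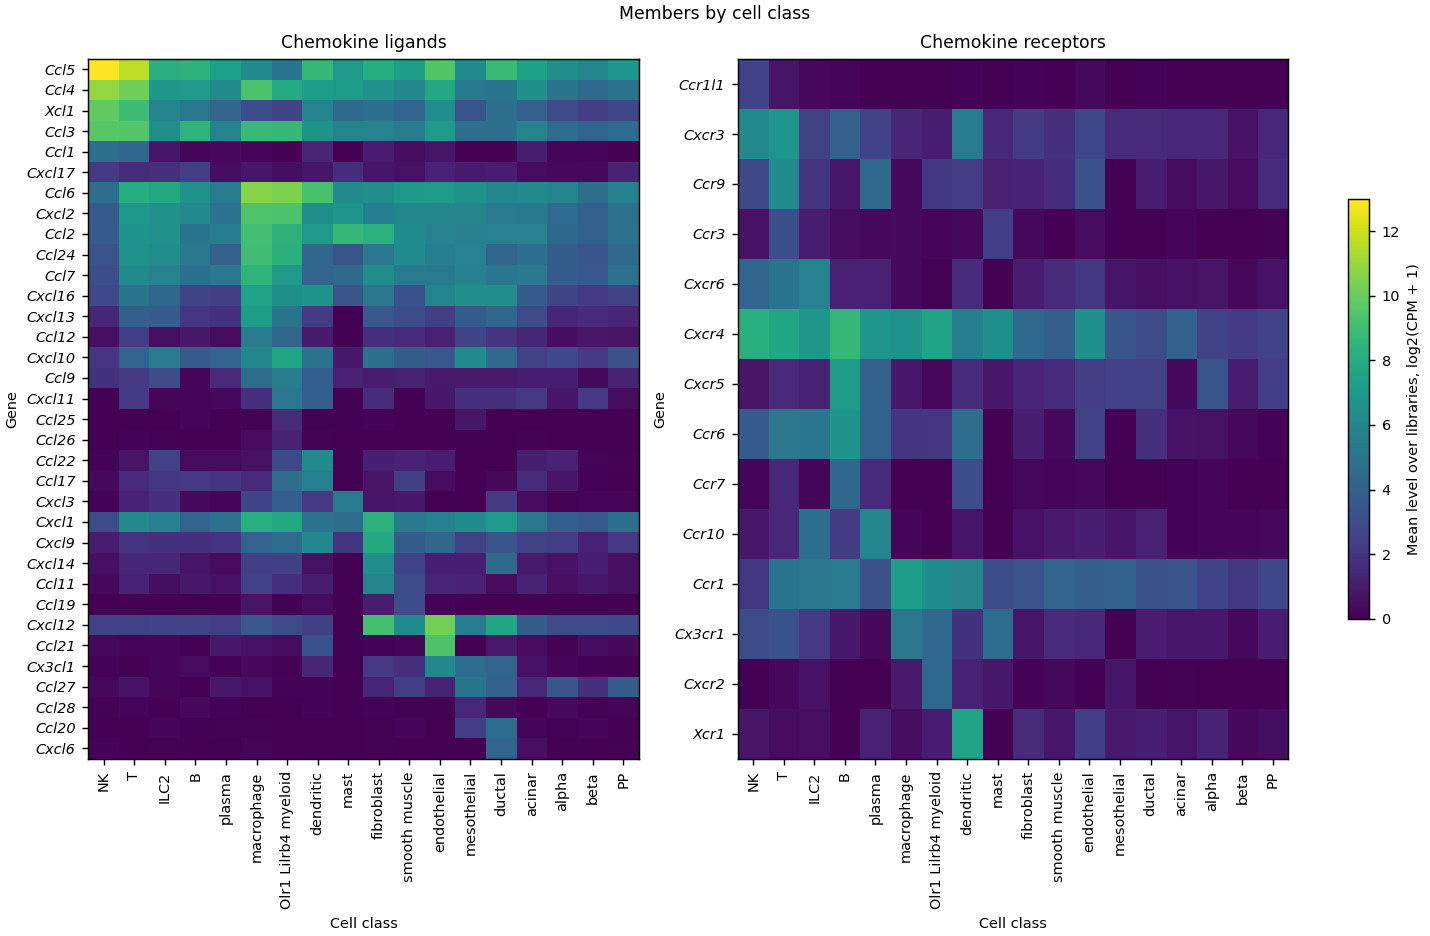
Mean level over libraries of members with at least 1 CPM in their leading class, as log2(CPM + 1) by colour, with genes on the vertical axis and 18 cell classes on the horizontal axis, ligands on the left and receptors on the right. NK cells hold the brightest ligand square (Ccl5), macrophages the longest run of ligands, and Xcr1 is bright in dendritic cells alone among the classes drawn.

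Fibroblasts led 4 ligands. Cxcl9, an interferon-induced ligand of Cxcr3, stood at 197, 471, 201, 249.8, 156 and 213 CPM, and dendritic cells came second at 66.7 ± 55.7 CPM, lower in 6 of 6 libraries. Of all Cxcl9 UMIs, 80.6% were in fibroblasts. Cxcl1, a neutrophil attractant, averaged 328 ± 208 CPM in fibroblasts and 291 ± 193 CPM in macrophages, and fibroblasts were above macrophages in only 2 of 6 libraries, so no order of the pair can be read. Cxcl1, Cxcl2 and Cxcl3 are similar in sequence, and how reads common to them were assigned is likewise not given in the sources used here. In the fibroblasts of HFHF-old 2, Cxcl1 was at 656 CPM and Cxcl2 at 8.70 CPM. Cxcl14 and Ccl11 (eotaxin) averaged 84.7 ± 78.6 and 55.1 ± 94.2 CPM in fibroblasts, each highest in old 1. Cxcl14 was uneven within the class: in the fibroblast clusters led by Fibin, Pcdh20 or Col8a1 it was at most 6.17 CPM in any library.

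Cxcl9, Cxcl10 and Cxcl11 form a neighbouring set of interferon-induced genes that share the receptor Cxcr3, and their levels are taken up again in the diet comparison. Their promoters are shown for that reason, as the 250 bases before each start site on chromosome 14 of GRCr8 (RefSeq), plus strand, 5′ to 3′. The windows are chr14:16006916-16007165, chr14:15988816-15989065 and chr14:15973478-15973727 in the order printed. Capitals mark matches to a kappa B motif (GGGA and CC with any 4 bases between) or an interferon-stimulated response element (ISRE, GAAA on either side of any 2 bases), searched on both strands.
Cxcl9: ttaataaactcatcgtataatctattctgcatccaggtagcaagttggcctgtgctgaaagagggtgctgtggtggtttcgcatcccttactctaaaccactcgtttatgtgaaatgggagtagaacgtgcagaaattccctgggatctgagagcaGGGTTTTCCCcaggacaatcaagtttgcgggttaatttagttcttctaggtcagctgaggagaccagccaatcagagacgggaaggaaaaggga
Cxcl10: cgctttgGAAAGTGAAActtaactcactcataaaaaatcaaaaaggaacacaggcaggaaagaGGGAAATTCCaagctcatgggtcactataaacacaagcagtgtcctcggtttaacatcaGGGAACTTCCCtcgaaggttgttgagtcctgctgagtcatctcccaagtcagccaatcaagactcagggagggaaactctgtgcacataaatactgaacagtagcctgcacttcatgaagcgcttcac
Cxcl11: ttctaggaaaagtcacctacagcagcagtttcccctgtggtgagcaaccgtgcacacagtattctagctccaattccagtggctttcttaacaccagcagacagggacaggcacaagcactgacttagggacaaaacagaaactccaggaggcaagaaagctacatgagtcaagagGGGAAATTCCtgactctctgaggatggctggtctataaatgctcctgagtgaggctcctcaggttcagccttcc
A kappa B match was found 94 bases before the start of Cxcl9 on the minus strand, 187, 128 and 127 bases before that of Cxcl10 and 74 bases before that of Cxcl11. The matches of Cxcl10 at 128 and 127 bases overlap on opposite strands. An ISRE match was found only in Cxcl10, 243 bases before its start. Of the 33469 promoters in the table, each searched to 50 bases past the start, 19.3% held the kappa B letters and 3.92% the ISRE letters. Among the 40 members with a promoter there, 16 and 2 did. A match is a string of letters and shows no binding.

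Cxcl9 thus lay mainly in fibroblasts. Cxcl10 and Cxcl11 had their highest mean level in the Olr1 Lilrb4 myeloid class, which held only 9.56 and 7.71% of their UMIs. For Cxcl11 this class was above dendritic cells, the second class, in 3 of 5 libraries. Cxcl10 was at 234, 102, 498, 87.3 and 83.6 CPM in the Olr1 Lilrb4 myeloid class, without young 2, which had 8 such cells. Cxcl11 was at 0, 69.5, 101, 0.814 and 0 CPM in the same 5 libraries. It was seen in the old libraries and near 0 in the other 3. Dendritic cells led Ccl17 and Ccl22, ligands of Ccr4, at 49.8 ± 12.5 and 69.8 ± 51.5 CPM. Ccr4 itself had only 23 UMIs in all cells.

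The remaining ligands were low and led by several classes. Ductal cells led Ccl20, the ligand of Ccr6, at 23.6 ± 11.4 CPM (n = 5), and Cxcl6, which draws neutrophils, at 17.1 ± 13.3 CPM (n = 5). Mesothelial cells led Ccl27 at 32.1 ± 37.8 CPM (n = 4), smooth muscle cells Ccl19, mast cells Cxcl3, B cells Cxcl17 and the Olr1 Lilrb4 myeloid class Ccl9, Ccl25 and Ccl26. The lowest ligands were Ccl25 with 139 UMIs in all cells, Ccl19 with 59, a mucosal ligand of Ccr10 named Ccl28 with 50, and the eotaxin relative Ccl26 with 47, and they are not placed further here.

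Receptors were lower than ligands and led mostly by lymphocytes. B cells led 4 of the 17 receptors seen above 0 in any named class, and T cells led 5. Cxcr4, the receptor of Cxcl12, stood at 404, 133, 514, 329, 485 and 543 CPM in B cells. NK cells held 285 ± 126 CPM and T cells 213 ± 103 CPM, with B cells above NK cells in 6 of 6 libraries. Young 2 was lowest in all 3 of these classes. A Cxcr4 UMI was found in 40.0 to 84.6% of B cells (6.90 to 42.0% thinned) at median depths of 2543.5 to 6292 UMIs, and in 3.69 to 9.42% of acinar cells (0 to 3.43% thinned). Ligand and receptor of this pair thus lay in separate classes, Cxcl12 in endothelial cells and fibroblasts and Cxcr4 in lymphocytes.

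Cxcr5, which brings B cells into follicles, was at 122, 104, 123, 78.2, 264 and 121 CPM in B cells, and Ccr6 at 125, 66.4, 111, 78.2, 118 and 129 CPM. T cells and type 2 innate lymphoid cells (ILC2) also held Ccr6, at 35.2 ± 18.6 and 33.5 ± 30.4 CPM. Ccr7, the receptor of Ccl19 and Ccl21, was low, at 20.3 ± 17.8 CPM in B cells and 7.54 ± 4.07 CPM in dendritic cells. B cells numbered 20 to 212 per library, so a level of 1 UMI in the smallest sum is far from 0 in CPM.

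Ccr1, a receptor of Ccl3 and Ccl5, was led by macrophages at 286, 147, 108, 85.9, 214 and 93.6 CPM. Cxcr3, the receptor of Cxcl9, Cxcl10 and Cxcl11, averaged 112 ± 35.7 CPM in T cells and 74.4 ± 18.5 CPM in NK cells, T cells being above in 6 of 6 libraries.

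Xcr1, the receptor of Xcl1 and a mark of cross-presenting dendritic cells, was the most narrowly placed receptor. It stood at 173, 204, 97.5, 252, 158 and 177 CPM in dendritic cells, and the next class, endothelial cells, had 4.54 ± 8.42 CPM. Within dendritic cells it belonged to the cluster led by Clec9a, with 291, 317, 285, 347, 260.5 and 234 CPM, whereas the other dendritic cluster had 0 to 24.97 CPM. The lower class value of old 1 went with the Clec9a cluster being the smaller one there, 112 of 401 cells. An Xcr1 UMI was found in 20.4 to 50% of dendritic cells (5.64 to 20.2% thinned) at median depths of 5328.5 to 13466 UMIs, against 0 to 1.05% of acinar cells (0 to 0.398% thinned).

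Ccr10, the receptor of Ccl27 and Ccl28, was led by plasma cells at 45.5, 86.0, 70.5, 44.0 and 66.5 CPM (young 2 had 2 plasma cells), with ILC2 second at 25.2 ± 17.1 CPM. Cxcr6, the receptor of Cxcl16, was led by ILC2 at 46.9, 67.8, 37.0, 81.4, 36.9 and 45.1 CPM, with T cells at 31.6 ± 15.7 CPM. Cx3cr1, the receptor of fractalkine, was at 14.5, 28.6, 38.9, 38.7, 2.25 and 86.2 CPM in macrophages, lowest in HFHF-old 1, whose macrophages formed a cluster of their own. Cxcr2, the receptor of Cxcl1, Cxcl2, Cxcl3 and Cxcl6 on neutrophils, had 226 UMIs in all and reached 87.8 CPM in the Olr1 Lilrb4 myeloid class of young 1 (25 cells) but 0 to 10.4 CPM in the other 4. Cxcr1 had 1 UMI in all. Among the 15 ligands and the 12 receptors of highest level, taken separately, the leading class was the same for 27 of 27 without likely doublets, for 25 at the finer clustering and for 18 with 10 principal components, where B cells formed no class of their own. At the finer clustering Cxcl10 and Cxcr2 were led by a cluster of 252 cells with 8 of 8 neutrophil markers raised, while most cells of the Olr1 Lilrb4 myeloid class fell in a cluster named macrophage.

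**Figure D2:**
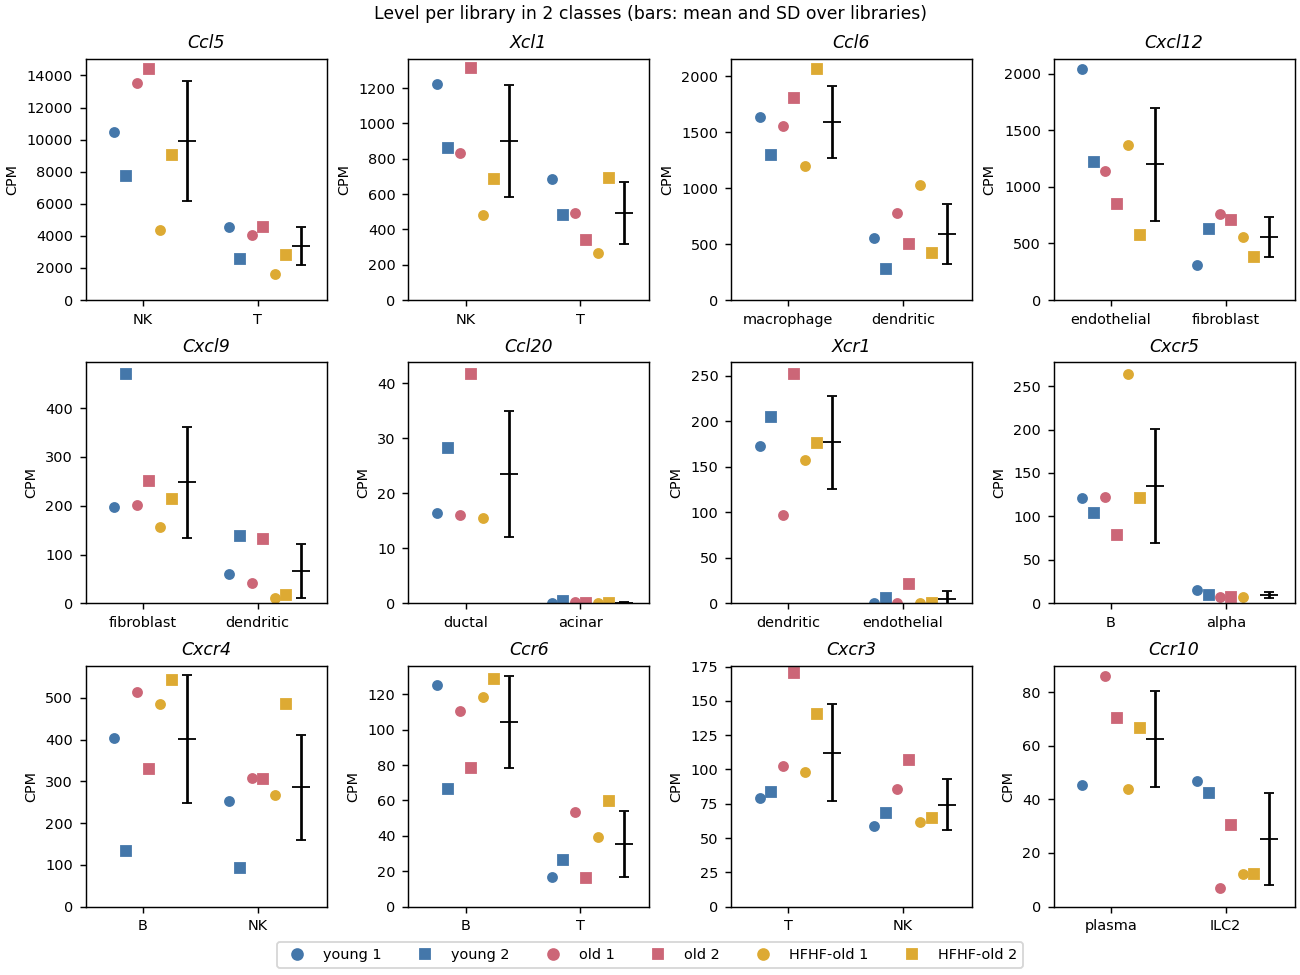
Level in CPM (vertical axis) of 12 members in each library, in the leading class and another class with the gene (horizontal axis). Circles are replicate 1 and squares replicate 2 of the young, old and HFHF-old groups, and black bars give the mean and SD over libraries, as for Xcr1, which is high in dendritic cells of every library and near 0 in endothelial cells.

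Islet and acinar cells held UMIs of many members, which raised the question whether these were their own transcripts or RNA carried over from other cells in the droplets. For each library, the level of marker genes of the non-epithelial classes in an epithelial class gave the share of its UMIs that came from each of those classes. That share was 6.65 to 17.5% of UMIs in acinar cells, 4.17 to 7.14% in beta cells, 3.95 to 10.98% in alpha cells, 7.36 to 12.1% in pancreatic polypeptide (PP) cells and 11.5 to 19.0% in ductal cells. The members' UMIs expected from it were set beside those observed, in libraries with at least 50 cells of the class. Some shares fell mainly on 1 source: mesothelial cells, 143 in all, took 3.37 of 5.02% in the beta cells of young 1 and 4.39 of 7.36% in the PP cells of young 2, and the Olr1 Lilrb4 myeloid class took 12.4 of 14.9% in the acinar cells of old 2, with 0% from macrophages. Without these sources, an alternative chosen after seeing the data, the shares were 2.96, 4.21 and 4.58%, and the same members were above carry-over, with Ccl27 in beta cells added. A member was counted as above carry-over where the exact Poisson 95% interval of its UMIs lay above the expected number in every such library. These intervals cover counting error only.

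In acinar cells 0 of the 35 members with at least 10 UMIs were above carry-over in all 6 libraries. Summed over members, 21696 UMIs were observed and 20003 expected, a ratio of 1.08. The 10 most abundant members had ratios of 0.777 to 1.37. Ccl5, the largest, had 98, 1166, 924, 345, 957 and 72 UMIs in acinar cells against 101, 946, 707, 235, 632 and 194 expected, above in 4 libraries and below in HFHF-old 2. Ccl5 levels in acinar cells were therefore of the size that carry-over gives, although single libraries departed from it by more than counting error.

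In beta cells the ratio was 1.19 over 28 members, and 1 of them, Cxcl11, was above carry-over in all 5 libraries with enough cells (and in 11 of 12 other settings). It had 21, 19, 5, 23 and 33 UMIs against 0.389, 0.346, 1.00, 3.94 and 0.119 expected, or 3.47 ± 2.15 CPM. The first 2 and the last, the young libraries and HFHF-old 1, were higher in CPM than both old ones. Ccl2, a monocyte attractant often studied in beta cells, was at 3.54 to 30.1 CPM and above carry-over in 4 of 5 libraries, all but young 2. Art3, which overlaps Cxcl11 on the opposite strand in GRCr8, stood at 1.56 ± 0.517 CPM in beta cells.

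In alpha cells the ratio was 1.02 over 31 members, and 2 were above carry-over in all 4 libraries. Ccl27, known as a skin chemokine and ligand of Ccr10, had 227 UMIs against 4.60 expected, at 11.6, 12.8, 8.90 and 8.75 CPM in young 1, young 2, old 1 and old 2. Cxcr5 had 222 UMIs against 4.42 expected, at 15.7, 9.34, 7.12 and 7.67 CPM. A Cxcr5 UMI was found in 6.76 to 13.8% of alpha cells, but in 0 to 1.86% after thinning, at median depths of 8653 to 24758 UMIs. In B cells it was found in 15 to 56.7% (5.88 to 24.0% thinned), and in acinar cells in 0 to 0.389%. Ccl27 was also above carry-over in PP cells, the only member of 26 there, with 151 UMIs against 8.12 expected. In GRCr8, Ccl27 overlaps Il11ra1 and Cxcr5 overlaps Bcl9l. Il11ra1 was at 11.6 ± 2.96 CPM in alpha cells and 12.3 ± 2.32 CPM in acinar cells. It was at 73.2 ± 19.8 CPM in mesothelial cells (n = 4) and 38.7 ± 5.92 CPM in ductal cells (n = 5). These classes also had the highest and second mean levels of Ccl27. Fibroblasts, with less Ccl27 than PP cells, held Il11ra1 at 34.5 ± 13.1 CPM. Bcl9l was at 49.8 ± 8.67 CPM in B cells and 49.98 ± 6.64 CPM in ductal cells. It was at 35.5 ± 5.24 CPM in fibroblasts and 9.34 ± 6.56 CPM in alpha cells. In acinar cells Ccl27 was above carry-over in 5 of 6 libraries, at 0 to 3.31 CPM. Whether reads of these neighbours were counted for the members was not tested.

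Ductal cells differed from the islet and acinar classes. 10 of 30 members were above carry-over in all 3 libraries with at least 50 ductal cells (young 1, old 1 and old 2), and the summed ratio was 1.68. The rule of every library is easier to meet with 3 libraries than with the 4 to 6 of the other classes. The counts of members above carry-over are therefore not on the same footing. Ccl20 had 102 UMIs against 0.208 expected, and Cxcl6 had 81 against 0.0211. Cxcl12 stood at 175, 270.4 and 121 CPM with 604 UMIs against 108 expected, Cxcl1 at 119, 74.1 and 160.3 CPM with 442 against 91.1, and Cxcl16 at 98.6, 80.1 and 90.2 CPM with 308 against 45.5. Ccl2 (251 against 139.6), Cxcl14 (114 against 14.3), Cx3cl1 (70 against 2.92), Ccl27 (57 against 1.26) and Cxcr5 (14 against 1.16) were the others. Over 12 other settings Cxcr5 was above carry-over in ductal cells in 7 and Ccl2 in 10, and the other 8 members in 12 of 12. No pair of member and epithelial class was below carry-over in every library. The exact sign-flip permutation test over libraries (two-sided) gave adjusted p of 0.551 or more for all 150 pairs, and with 6, 5, 4 and 3 libraries its smallest possible p is 0.0312, 0.0625, 0.125 and 0.25 before adjustment.

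**Figure D3:**
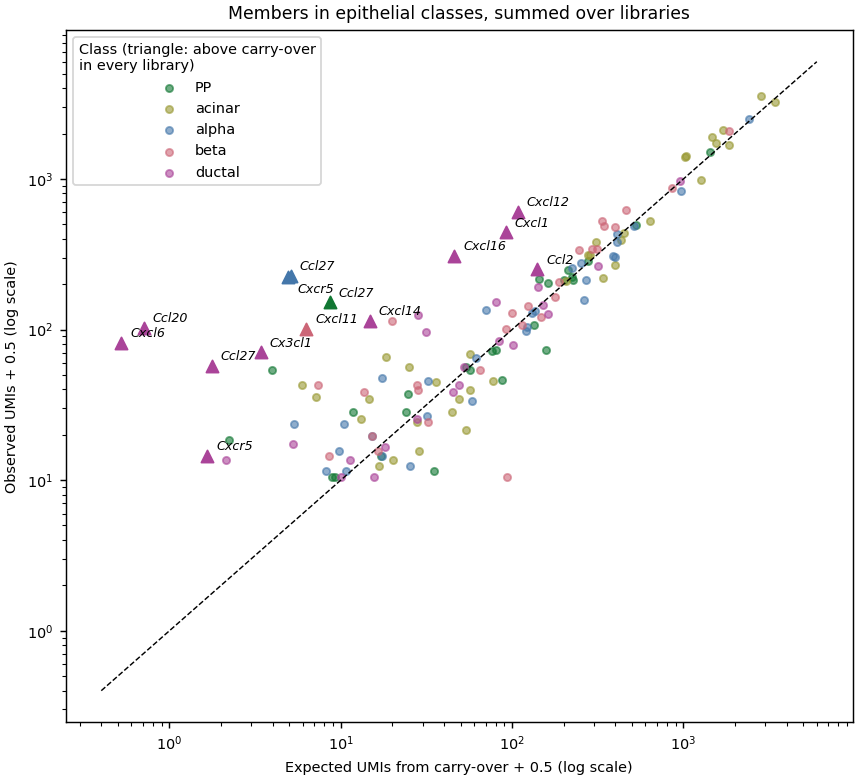
Observed UMIs against UMIs expected from carry-over, each plus 0.5 and on log axes, for members with at least 10 UMIs in an epithelial class, summed over libraries with at least 50 cells. Triangles mark the 14 pairs above carry-over in every library, 10 of them ductal, and the dashed line is equality, along which the acinar points with many UMIs lie.

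Old rats were compared with young rats for the change with age, and HFHF-old with old rats for the diet. Counts were summed per library and class and tested with edgeR's quasi-likelihood test, a member and a call needed a fold over 1.5 and an adjusted p (Benjamini-Hochberg, every gene tested in the class) under 0.05. 45 of the 52 members passed the filter on low counts in at least 1 class. Because that filter keeps a gene for its level in any group, those 45 are not a fair sample of all members. With 2 libraries against 2, no permutation of labels can give a two-sided exact p below 0.333. The p-values below set a group difference against a spread between single rats. That spread was taken over the libraries of all groups together, so the p-values with age also rest on the HFHF-old libraries.

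No member was called with age. Of 347 pairs of member and class (14 classes), 0 passed in edgeR, where the background over all genes was 0.0552%, and 2 passed in DESeq2, where it was 0.348%. At an unadjusted edgeR p under 0.05, 41 pairs (11.8%) stood out, 32 higher and 9 lower in old rats, against a background of 4.5%. Both old libraries lay above both young ones in 74 pairs (21.3%, background 13.3%) and below in 45 (12.97%, background 22.8%). The median log2 difference was 0.35 over the pairs and 0.01 over all genes. The pairs share libraries, so they are not independent. Without 1 library at a time the count was 2 to 10, the 10 being without old 2, 6 without young 1 and 5 without old 1. Leaving out a library of a compared group sets 1 library against 2 with the spread taken from the other groups, so the lone library is assumed to vary like the others.

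Ccr9, the receptor of the gut and thymus ligand Ccl25, had the smallest p with age. In T cells it stood at 12.5, 12.7, 205, 125, 36.0 and 58.8 CPM. Both old libraries were far above both young ones, and both HFHF-old libraries lay between. The log2 difference of old from young was 3.84 (SE 0.37, edgeR adjusted p = 0.249). It was called by DESeq2 (adjusted p = 3.43e-13). In edgeR it was called with 10 principal components (log2 difference 2.65, edgeR adjusted p = 0.0386). Without the filter on low counts it was also called (3.87, edgeR adjusted p = 2.26e-05). Without likely doublets it was not called (3.14, edgeR adjusted p = 0.155). Leaving out HFHF-old 1 or HFHF-old 2, neither of them compared here, gave 3.85 and 3.86. A Ccr9 UMI was found in 4.60, 6.03, 56.6, 24.4, 11.8 and 14.7% of T cells (1.11, 2.59, 19.4, 10.3, 3.40 and 4.19% thinned) at median depths of 2939 to 8819 UMIs, against at most 0.527% of acinar cells. A cluster led by Cd8b made up 48.6, 52.6, 77.6, 86.6 and 90.2% of the T class in young 1, young 2, old 1, old 2 and HFHF-old 2, but HFHF-old 1 was 75.0% a cluster led by Il23r. Within the Cd8b cluster, a comparison chosen after the data were seen, Ccr9 was at 31.2, 27.6, 282, 148, 55.2 and 66.5 CPM, in the same order of groups. HFHF-old 1 had only 16 cells in that cluster. The same direction at unadjusted p under 0.05 was found in dendritic cells, endothelial cells and fibroblasts, where Ccr9 was at most 32.5 CPM. In dendritic cells the log2 difference of 2.61 became 0.33 without likely doublets.

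Ccl7 in fibroblasts was the other pair that DESeq2 called, at 36.4, 15.7, 149, 131, 116 and 59.1 CPM. Its old libraries were above its young ones, with a log2 difference of 2.37 (SE 0.48, edgeR adjusted p = 0.368, DESeq2 adjusted p = 0.000283). Without likely doublets edgeR called this pair too (log2 difference 2.58, edgeR adjusted p = 0.0488). Ccl11 in fibroblasts differed by 3.72 (SE 0.92), but 246 CPM in old 1 carried this and old 2 was at 37.3 CPM. The fibroblast class was made mainly of a Pcdh20 cluster in the young libraries (66.8 and 46.7%) and of a Fibin cluster in old 2 (53.3%). Within the Fibin cluster Ccl7 was at 78.2 and 7.91 CPM in the young libraries and at 56.6 and 48.2 CPM in the old ones, where the groups overlapped. In PP cells, Ccl3 had the lowest adjusted p of any pair with age (0.181, edgeR), at 13.9, 5.78, 32.4, 22.4 and 35.8 CPM, where it was above carry-over in 1 of 5 libraries. With the replicate number as a block in edgeR, this pair was called (log2 difference 1.79). Cxcl11 in beta cells, at 5.97 and 4.20 CPM in young and 1.12 and 1.33 CPM in old libraries, differed by -2.28 (SE 0.48, edgeR adjusted p = 0.692).

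Among lymphocyte receptors, Cxcr3 in T cells was 0.92 higher on the log2 scale in old rats (SE 0.37). Cxcr6 in T cells was 1.35 higher (SE 0.39), at 21.7 and 22.6 CPM in young and 45.8 and 55.5 CPM in old libraries. In NK cells Cxcr3 differed by 0.71 (SE 0.27) and Ccl1 by -2.06 (SE 0.66). The Ccl1 value rested on young 2, since it was -0.59 without that library and -0.45 with 10 principal components. None of these passed adjustment (edgeR adjusted p of 0.711 to 1.00). Ccr1l1, a Ccr1-like receptor, in NK cells and Ccl17 in T cells were also higher by point value, but at most 10.7 and 6.70 CPM in any library. In B cells the member with the smallest p was Ccl5, at 213, 28.5, 775, 31.3, 225 and 776 CPM, which followed single libraries and not groups. Ccl3 in B cells differed by 0.97 (SE 0.60) and Cxcr4 by 0.66 (SE 0.46).

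In macrophages the smallest p with age were those of Cxcl17, at most 1.58 CPM in every library, Ccl12 (log2 difference 1.63, SE 0.73) and Ccl9 (1.01, SE 0.46). Ccl12 was at 33.0 and 18.0 CPM in young and 35.5 and 113 CPM in old libraries, so the difference lay in old 2. In dendritic cells Ccr6 was at 22.4 and 42.4 CPM in young and 13.4 and 13.9 CPM in old libraries (-1.05, SE 0.50), and Ccl1, 3.20 higher (SE 1.32), was at most 5.73 CPM. In endothelial cells Cxcr3 was at 1.61 and 2.09 against 10.2 and 10.9 CPM (2.44, SE 0.94), and Ccl4 differed by 1.40 (SE 0.74). The edgeR adjusted p of all of them was 0.815 or more.

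**Figure D4:**
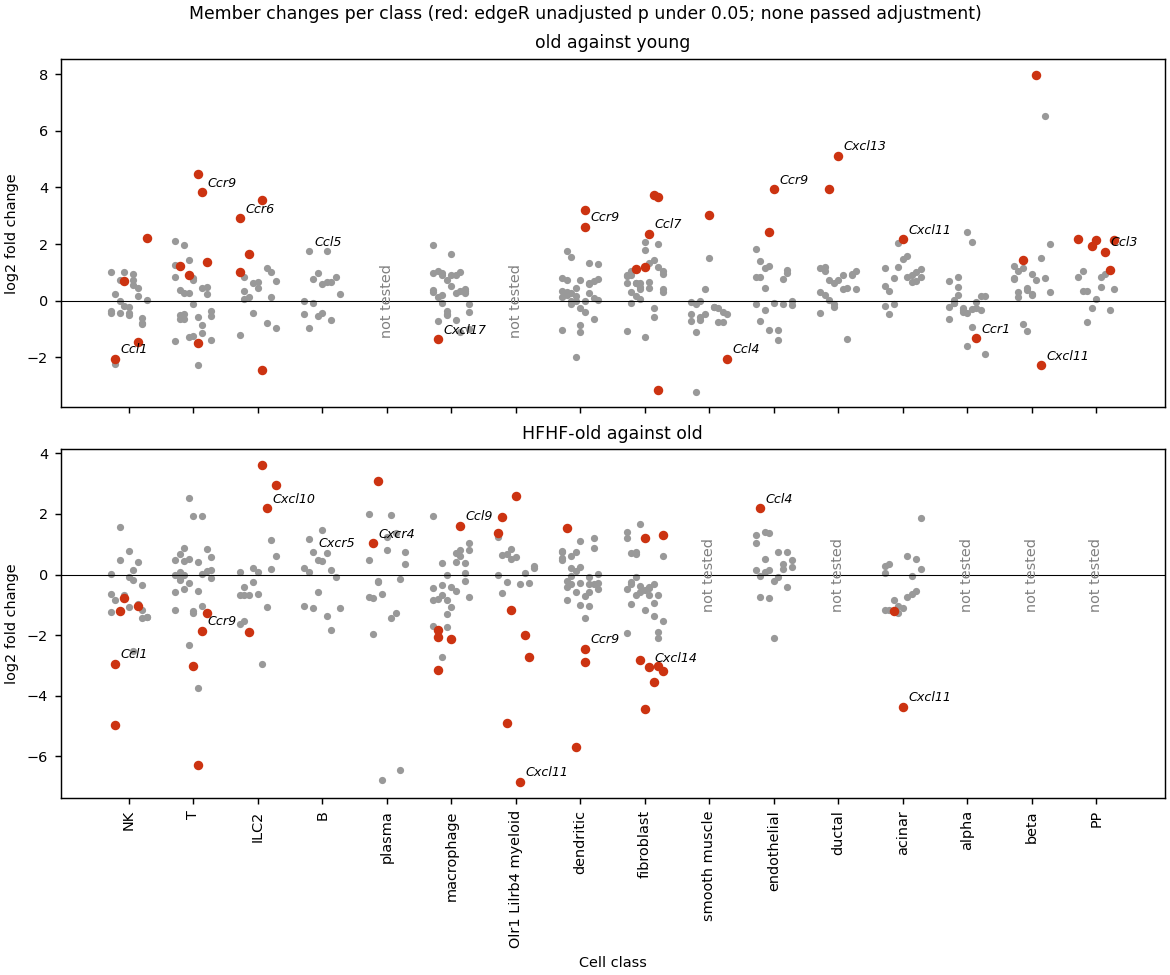
The log2 fold change of each tested member (vertical axis) by cell class (horizontal axis), old against young above and HFHF-old against old below, with a member of small p labelled in each class. Red points had an unadjusted edgeR p under 0.05, 41 of 347 above and 43 of 281 below, and no point passed adjustment.

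No member was called with the diet either. Of 281 pairs (11 classes, 43 members), 0 passed in edgeR, where the background was 0.00184%, and 6 passed in DESeq2, where it was 0.232%. At an unadjusted edgeR p under 0.05 there were 43 pairs (15.3%, background 6.09%), 13 higher and 30 lower in HFHF-old rats. Both HFHF-old libraries lay above both old ones in 41 pairs (14.6%, background 23.3%) and below in 60 (21.4%, background 13.9%). The median log2 difference was -0.25, against 0.02 over all genes. The old libraries serve both comparisons, so a value that is high in old rats appears in each with opposite sign. The count of 0 depended on the libraries: it was 16 without HFHF-old 1, 9 without HFHF-old 2 and 1 without young 1 or old 1. Without an old or HFHF-old library, 1 library again stood against 2.

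The Cxcr3 ligands were among the pairs with the smallest p. Cxcl11 in the Olr1 Lilrb4 myeloid class had the lowest edgeR adjusted p of any pair (0.0986, DESeq2 adjusted p = 1.57e-05). In these cells it stood at 69.5 and 101 CPM in old and 0.814 and 0 CPM in HFHF-old libraries. HFHF-old 1 held 1607 of these cells and old 1, old 2 and HFHF-old 2 held 71, 62 and 25, so the level rests on few cells outside HFHF-old 1. The cells also differed: at the finer clustering 1522 of the HFHF-old 1 cells fell in the Olr1-led cluster named macrophage, and 56 and 58 of the old 1 and old 2 cells in the neutrophil cluster, which also held 85 and 24 cells of the HFHF-old libraries. Within that cluster Cxcl11 was at 88.6 and 104 CPM in old and 3.26 and 0 CPM in HFHF-old libraries, and Cxcl9 at 50.9 and 60.4 against 0 and 0 CPM. Both were called there, Cxcl11 at a log2 difference of -5.22 (edgeR adjusted p = 0.0035) and Cxcl9 at an edgeR adjusted p of 0.0225, its fitted fold resting on libraries at 0. Cxcl11 was lower at unadjusted p under 0.05 in 5 classes, among them dendritic cells at 2.72 and 11.3 against 0.163 and 0 CPM. Cxcl9 in dendritic cells stood at 60.7, 139, 40.9, 131, 11.1 and 17.9 CPM, a log2 difference of -2.87 from old (SE 0.69, edgeR adjusted p = 0.859, DESeq2 adjusted p = 0.008). In the Clec9a cluster it was at 104 and 173 CPM in old libraries and 13.6 and 23.9 CPM in HFHF-old ones. Cxcl9 in fibroblasts, its leading class, showed no such gap, with 201 and 249.8 against 156 and 213 CPM. Cxcl10 went both ways, lower in the Olr1 Lilrb4 myeloid class (log2 difference -1.99, SE 0.78) and higher in ILC2 (2.19, SE 0.53).

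Further low values were in fibroblasts. Cxcl14 was at 219 and 116 CPM in old and 19.6 and 20.6 CPM in HFHF-old libraries, a log2 difference of -3.06 (SE 0.62, edgeR adjusted p = 0.508), and DESeq2 called it. The make-up of the class differed: HFHF-old 1 was 79.3% a Col8a1 cluster and HFHF-old 2 75.8% the Fibin cluster, in both of which Cxcl14 was low in every library. Ccl11 in fibroblasts differed by -3.55 (SE 0.88), again through old 1. Cxcr6 in fibroblasts was at most 2.26 CPM (-3.18, SE 0.67). Cxcl13 in fibroblasts was at 23.8 and 11.9 against 3.58 and 1.11 CPM (-2.81, SE 0.66, edgeR adjusted p = 0.530, DESeq2 adjusted p = 0.00759). DESeq2 also called Cxcl11 in fibroblasts (log2 difference -4.47, DESeq2 adjusted p = 0.041). Macrophage markers in fibroblasts were low in HFHF-old 2 but not in HFHF-old 1. Cxcl13 in macrophages themselves ran from 10.1 CPM in HFHF-old 1 to 428 CPM in old 1. The markers alone therefore do not give the Cxcl13 that macrophage RNA would bring. C1qa, a complement gene of macrophages, was at 183, 109, 305, 369, 393 and 4.05 CPM in fibroblasts, and the macrophage ligand Ccl24 at 32.5, 26.5, 57.8, 56.9, 37.5 and 0 CPM. Their part in the result was not tested.

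Higher values with the diet were fewer. Ccl2 in fibroblasts stood at 155, 58.7, 249.99, 244, 552 and 604 CPM, both HFHF-old libraries above the other 4, with a log2 difference of 1.21 from old (SE 0.43). Cxcl1 in fibroblasts stood at 487 and 656 against 149 and 304 CPM (1.29, SE 0.51). Neither passed adjustment (edgeR adjusted p of 0.767 and 0.794). Ccl4 was higher at unadjusted p under 0.05 in 4 classes that are not its leading class, among them endothelial cells, at 51.2, 31.9, 138, 86.1, 143 and 916 CPM. The 916 CPM was in HFHF-old 2, the library with 69.9% NK cells, and without it the log2 difference fell to 0.35. For Ccl4 in the Olr1 Lilrb4 myeloid class the log2 difference without that library was 2.35. In NK cells Ccl4 itself was at 1853 and 3236 against 2189 and 1371 CPM and overlapped. Ccl3 in endothelial cells followed the same library, with 408 CPM in HFHF-old 2 and 39.8 to 109 CPM in the other 5. Ccl9, a further myeloid CC ligand, was at 17.5 and 9.36 CPM in old and 29.2 and 71.4 CPM in HFHF-old macrophages (1.61, SE 0.49, edgeR adjusted p = 0.7996).

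Lymphocyte members differed between the HFHF-old and old libraries as follows. Ccr9 in T cells differed by -1.85 from old (SE 0.33, edgeR adjusted p = 0.654, DESeq2 adjusted p = 0.0054), and Cxcr6 in T cells by -1.27 (SE 0.37). In NK cells Ccl1 differed by -2.95 (SE 0.82), Xcl1 by -1.05 (SE 0.42), Ccl5 by -1.20 (SE 0.49) and Cxcr3 by -0.77 (SE 0.27), all with an edgeR adjusted p of 0.639. The NK class numbered 64 cells in HFHF-old 1, 29 of them in a cluster led by the cycling gene Top2a, and 8185 in HFHF-old 2. With the Tnni3k cluster added, which gave HFHF-old 1 887 cells, the HFHF-old libraries were at 7848 and 9015 CPM for Ccl5, 76.0 and 64.5 for Cxcr3 and 6.33 and 1.88 for Ccl1, still below both old ones, and at 912 and 683 CPM for Xcl1, which overlapped old 1. The main cluster of the class was another in each of these libraries than in old 1 and old 2. In B cells the smallest p was that of Cxcr5, at 123 and 78.2 against 264 and 121 CPM, where the groups overlapped. Several of the smallest p belonged to low members: Cxcl13 in NK cells (-4.97, SE 1.44) was at most 4.42 CPM, Ccl17 in T cells (-6.28, SE 1.21) at most 6.70 CPM, Cxcl14 and Cxcl11 in macrophages (-2.07, SE 0.64, and -3.14, SE 1.03) at most 8.51 and 6.996 CPM. Ccr9 in dendritic and endothelial cells differed by -2.45 (SE 0.56) and -2.08 (SE 1.27), and in dendritic cells by -0.21 without likely doublets. Ccl4 and Ccl6 in B cells differed by 1.48 (SE 0.92) and -1.10 (SE 0.73).

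The rest of the chemokine system was read from 15 genes of signalling, scavenging and processing, 12 of which were tested. With age 2 of their 127 pairs were called by edgeR and 5 by DESeq2, against 0.0552 and 0.348% of pairs over all genes. An unadjusted edgeR p under 0.05 was found for 17 of the 127 (13.4%, background 4.5%), 11 higher and 6 lower in old rats. Both edgeR calls lay in ductal and PP cells, the classes with 56 and 21 of the 83 calls over all genes. Ackr3, the scavenging receptor of Cxcl12, fell in ductal cells, at 139 and 132 CPM in young and 17.0 and 7.79 CPM in old libraries (log2 difference -3.45, SE 0.40, edgeR adjusted p = 0.0151). Young 2 had 23 ductal cells. Fibroblasts, the class with the most Ackr3, gave 10.2% of ductal UMIs in young 1 by the carry-over fit, against 1.49 and 3.74% in the old libraries. Carry-over from all sources gave an expected 99.6 CPM of Ackr3 in young 1 and 22.3 and 29.8 CPM in old 1 and old 2. Rgs1, which dampens chemokine receptor signalling in lymphocytes, rose in PP cells (2.40, SE 0.39, edgeR adjusted p = 0.0244), at 8.68 and 10.7 against 64.8 and 34.5 CPM. It is an immune gene with 703 CPM in macrophages and 609 CPM in T cells. Carry-over gave an expected 18.5 and 11.95 CPM of it in the PP cells of young libraries. In those of old libraries the expected 60.7 and 36.1 CPM were close to the levels observed. In HFHF-old 1 it was observed at 34.0 CPM against 15.9 expected. The part of carry-over in the differences of Ackr3 and Rgs1 was not tested. With the diet 0 of 94 pairs were called by edgeR or DESeq2, and 2 had an unadjusted edgeR p under 0.05. By level, Pf4, a platelet-type CXC ligand, was at 1160.0 ± 674 CPM in macrophages, and Ackr3 was highest in fibroblasts at 849.5 ± 151 CPM.

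The other lists were read beside a background over all genes of 4.5% with age and 6.09% with the diet at an unadjusted edgeR p under 0.05, and of 0.348 and 0.232% called by DESeq2. Among genes that NF-kB induces, as it does many chemokines, 0 of 133 pairs were called with age by edgeR (2 by DESeq2) and 29 (21.8%) had such a p, all with higher values. With the diet 0 of 106 were called by edgeR (7 by DESeq2) and 30 (28.3%) had such a p, 24 of them higher. Among interferon response genes 0 of 155 were called by edgeR with age (0 by DESeq2) and 14 (9.03%) had such a p, and with the diet 0 of 127 (1 by DESeq2) and 25 (19.7%), 15 of them lower. Among genes known to respond to tissue dissociation, 0 of 205 pairs were called with age by edgeR (8 by DESeq2), 29 (14.1%) had such a p, all with higher values in old rats, and the median log2 difference was 0.55. Their part in the members' values was not tested. With the diet 6 of their 160 pairs (3.75%) had such a p, and 0 were called by either tool.

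**Figure D5:**
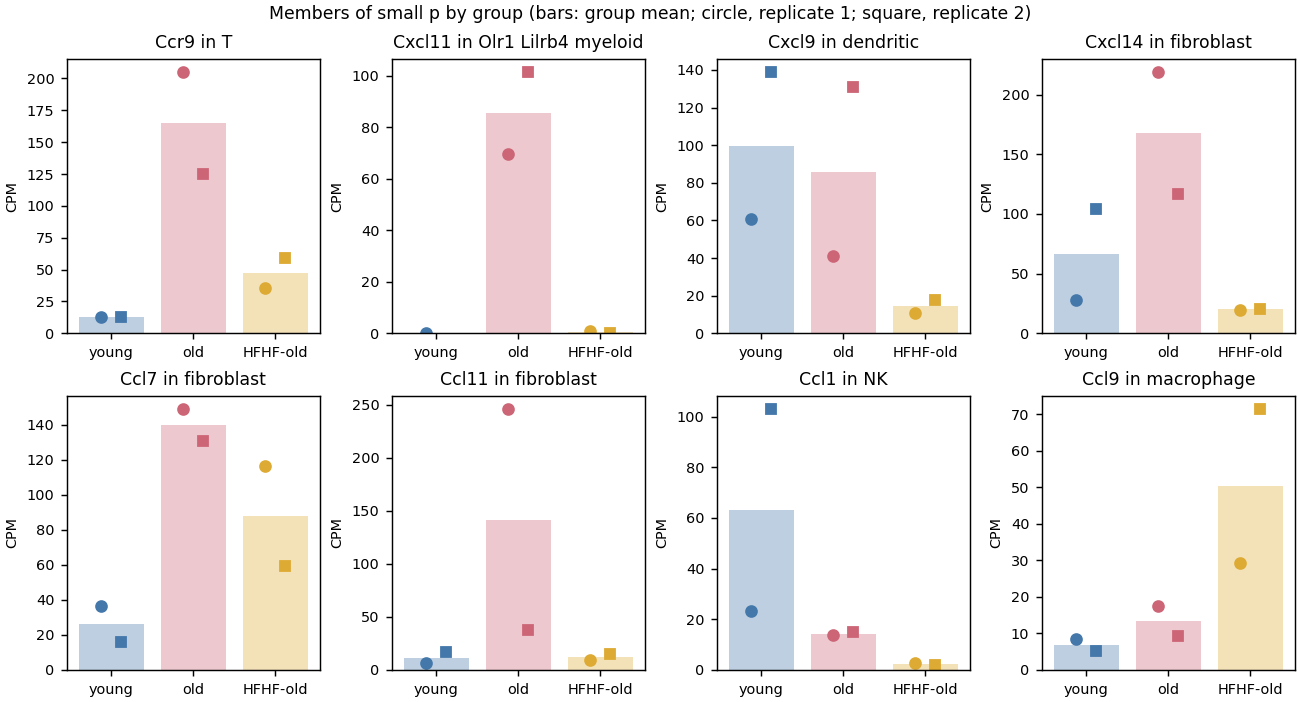
Level in CPM (vertical axis) of 8 members with small p in the class named above each panel, by group (horizontal axis). Bars are group means and points are single libraries (circle replicate 1, square replicate 2), as for Ccr9 in T cells, where the old libraries at 205 and 125 CPM lie above the other 4.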

How the data were processed

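Single-cell RNA-seq count tables of 6 libraries were used. The authors deposited UMI counts per gene and barcode, made with Cell Ranger (version 5.0.0 per the file headers) on Rnor 6.0 per the submitters' processing notes, with no normalization. Members and gene lists were chosen with earlier results of these data known.

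Of 78024 barcodes, 75201 were kept, with at least 200 genes, at most 25% mitochondrial counts and outside the top 1% of gene counts. After scaling to 10000 counts per cell and log transformation, 2000 variable genes without 65 chemokine-system genes gave 30 principal components, a graph of 20 neighbours and Leiden clusters at resolution 1 (scikit-learn 1.9.0, leidenalg 0.10.2). Clusters were named from marker lists. Doublets were scored and kept, and left out in an alternative (8113 barcodes, 0.8% per 1000 barcodes). Counts were summed per library and class (at least 10 cells) and tested with edgeR 4.0.16 (TMM, filter on low counts, quasi-likelihood test, Benjamini-Hochberg), with DESeq2 1.42.0 as an alternative. The test script was checked on simulated data.

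Carry-over used non-negative least squares on marker genes of at least 50 CPM in a source class, for members with at least 10 UMIs. Named members were the 15 ligands and 12 receptors of highest level, the 3 of smallest p in each contrast in 7 classes, and those above carry-over. Shares were compared after thinning to 1000 UMIs, which left out shallower cells (1325 acinar, 248 NK, 232 dendritic, 191 T, 273 alpha and 19 B). Promoters were matched by symbol to RefSeq (GRCr8), and 40 of 52 members had one. Proteins were not used here. A few results are not reported here.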

Additional observations from a re-analysis of the deposited data

Results flagged for a closer look

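Ccl25, the ligand of Ccr9, was seen outside the named classes. Of its 139 UMIs in the series, 113 (81.3%) lay in 1 unnamed cluster of 43 cells led by Fabp1, Rbp2 and Apoa1, genes known from absorptive intestinal cells, and the comparisons above do not use that cluster. Its cells came from young 1 (21), old 2 (8) and HFHF-old 1 (14), with 32, 49 and 32 Ccl25 UMIs, and 16 of the 43 cells had one. The level was 176 CPM of Ccl25, against 22300.1 CPM of Fabp1. Likely doublets made up 67.4% of the cluster.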

How the results depend on the processing

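The count of members called moved with the processing. With age it was 0 in edgeR, also with RLE factors, with library size alone, with at least 30 cells and at resolution 2. It was 2 with DESeq2, 30 without the filter on low counts, 2 with 10 principal components and 1 without likely doublets. With the diet it was 0 with RLE factors, library size alone, at least 30 cells, 10 principal components and without likely doublets, but 6 with DESeq2, 37 without the filter and 2 at resolution 2. Leaving out 1 library gave 2 to 10 calls with age (10 without old 2) and 0 to 16 with the diet, 16 without HFHF-old 1 and 9 without HFHF-old 2. Where the library left out is of a compared group, that group has 1 library, assumed to vary like the others. Of the 16, 15 were members led by macrophages and lower in 5 other classes. The number above carry-over was 14, ranged from 12 to 17 under other alternatives and over libraries left out, and was 23 with at least 100 cells, which uses fewer libraries. The cause of the other moves was not tested.

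Whether the replicate numbers pair the samples was not settled. The deviations of same-numbered libraries correlated over 0.1 in 14 of 27 pairs of groups (-0.39 to 0.46). In ILC2 all of them did (0.20, 0.31 and 0.26). No level expected without pairing was worked out. With the replicate block 3 members were called with age and 0 with the diet. Those called were Ccl3 in PP cells (log2 difference 1.79), Cxcl13 in ductal cells (5.72) and Ccl4 in smooth muscle cells (-2.23).

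Of 606 alternative values of single members, 572 kept direction and side of the threshold, 30 passed it only in the alternative and 4 changed sign. Those were Cxcl13 in NK cells with the diet (0.95 at resolution 2), Ccl3 in endothelial cells with the diet (-0.61 to 2.10 over libraries left out), and Ccl5 (-2.06 to 3.83) and Ccl3 (-0.11 to 2.24) in B cells with age. With 2 libraries a group and 20 to 212 B cells per library, members of small classes were not measured precisely.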
